A study of Mus musculus with 9 samples.

Results

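Niacr1 and Ptgs2 were followed here together with 8 other genes of eicosanoid synthesis and sensing in CD11b+ bone marrow cells of mice. Niacr1 (now named Hcar2) encodes the receptor for nicotinic acid and β-hydroxybutyrate, and Ptgs2 encodes the inducible cyclooxygenase COX-2. The other members are Ptgs1, Tbxas1, Alox5, Alox5ap, Alox15, Lta4h, Ptger2 and Ptger4, which makes 10 of the 23337 genes in the counts. The members were chosen by name, after earlier results of these data were known: Niacr1 had been called lower after EnzR EVs by DESeq2, and Ptgs2 belonged to the genes that the study itself had drawn as lowered in that comparison. The values of both genes in EnzR EVs against PBS are therefore what chose them, and they are given below as a description with no test. All 10 members passed the filter on low counts (12553 genes in all).

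The 9 mice were male C57BL/6 animals that carried no tumour, in 3 groups of 3, with one library per mouse. The PBS group received 100 µl of PBS by tail vein on days 1, 3 and 5. The EnzR EVs group received, on the same days, 10 µg of protein of extracellular vesicles from CWR-R1 cells, a human prostate cancer line made resistant to the anti-androgen enzalutamide (EnzR). The EnzR EVs + HDL NPs group received the same vesicles and, on days 0, 2 and 4, 100 µl of HDL NPs, synthetic nanoparticles that mimic high-density lipoprotein. Their concentration is 1 µM in the labels and is given differently in the study's methods. No group received HDL NPs alone or vesicles of other cells, so an effect of HDL NPs without EnzR EVs was not measured. Marrow was taken on the day after the last injection, red cells were lysed and CD11b+ cells, which are myeloid cells such as neutrophils, monocytes, macrophages and eosinophils, were selected with magnetic beads.

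Eicosanoids are short-lived lipid signals made from arachidonic acid, which phospholipases release from membranes. The cyclooxygenases COX-1 (Ptgs1, usually constitutive) and COX-2 (Ptgs2, induced by cytokines, stress and growth signals) turn arachidonic acid into the precursor of prostaglandins and thromboxane, whereas 5-lipoxygenase (Alox5) and its helper protein FLAP (Alox5ap) start the leukotriene branch. Niacr1 stands upstream of this pathway in skin and in myeloid cells, where its activation by niacin releases arachidonic acid and gives rise to the prostaglandins that cause flushing.

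Depth differed between the libraries. Total counts lay between 2575776 and 18110561. The floor used here, 3 counts, corresponded to between 0.166 and 1.16 CPM (counts scaled to a common library total) before edgeR's TMM factors. It covers counting error only. With these factors, which scale the levels given below, 3 counts in EnzR EVs replicate 1 corresponded to 1.65 CPM. The ribosomal RNA gene Rn45s made up 20.3% of all counts in PBS replicate 1, 42.7% in EnzR EVs replicate 1 and 14.2% in EnzR EVs replicate 3. Its share in the other 6 libraries ran from 0.657% to 2.87%. The members' differences between EnzR EVs and PBS mice are given with and without these 3 libraries. Without them 2 PBS mice, 1 EnzR EVs mouse (replicate 2) and 3 EnzR EVs + HDL NPs mice remain, so these values rest on a single EnzR EVs mouse, which the fit assumes to vary like the other groups, and they say little about stability. Itgam, which encodes CD11b, lay between 1389 and 2006 CPM in all 9 libraries. Of 12 neutrophil lineage markers 11 were in the counts, and their summed level ranged from 53950 to 112200 CPM in the PBS group, from 30480 to 121900 CPM in the EnzR EVs group and from 80750 to 143600 CPM in the EnzR EVs + HDL NPs group. In such bulk samples, fewer cells of a type and less RNA per cell cannot be told apart.

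Niacr1 (GRCm38 chromosome 5, 123863570 to 123865499, minus strand) was lower in every mouse that had received EnzR EVs than in every PBS mouse. Its level, scaled by edgeR's TMM factors, was 61.4, 67.4 and 63.8 CPM in the PBS mice, 29.6, 40.1 and 35.2 CPM in the EnzR EVs mice and 36.9, 47.3 and 45.2 CPM in the EnzR EVs + HDL NPs mice. The PBS range lay above both other groups, which overlapped each other. The PBS mice averaged 64.2 ± 3.01 CPM (SD, n = 3) and the EnzR EVs mice 35.0 ± 5.25 CPM (SD, n = 3), with a mean of 43.1 ± 5.53 CPM (SD, n = 3) when HDL NPs were given as well. The log2 fold change was −0.86 (standard error 0.17) in EnzR EVs against PBS and −0.71 without the 3 libraries rich in Rn45s, where EnzR EVs replicate 2, the highest of its group, stands alone. The counts behind these values ranged from 54 to 1172 reads.

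Ptgs2 (chromosome 1, 150100031 to 150108227, plus strand) was low in the EnzR EVs mice and overlapped the PBS range in the mice that had received HDL NPs as well. Its level was 91.5, 121 and 119 CPM in the PBS mice, 52.1, 64.9 and 48.7 CPM in the EnzR EVs mice and 78.7, 127 and 112 CPM in the EnzR EVs + HDL NPs mice. The highest EnzR EVs mouse lay below the lowest mouse of either other group, and the PBS and EnzR EVs + HDL NPs ranges overlapped. The means were 111 ± 16.6 CPM (SD, n = 3), 55.2 ± 8.52 CPM (SD, n = 3) and 106 ± 24.9 CPM (SD, n = 3) in that order. The log2 fold change in EnzR EVs against PBS was −0.998 (standard error 0.22), and −0.89 without the 3 libraries rich in Rn45s, again with EnzR EVs replicate 2, the highest of its group, alone. The value that chose Niacr1 was its DESeq2 adjusted p of 0.0122, just inside the threshold of 0.05, and that of Ptgs2 lay just outside at 0.0605. Both are given to describe the choice and not as a test, and edgeR's adjusted p was 0.928 for both genes.

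**Figure D1:**
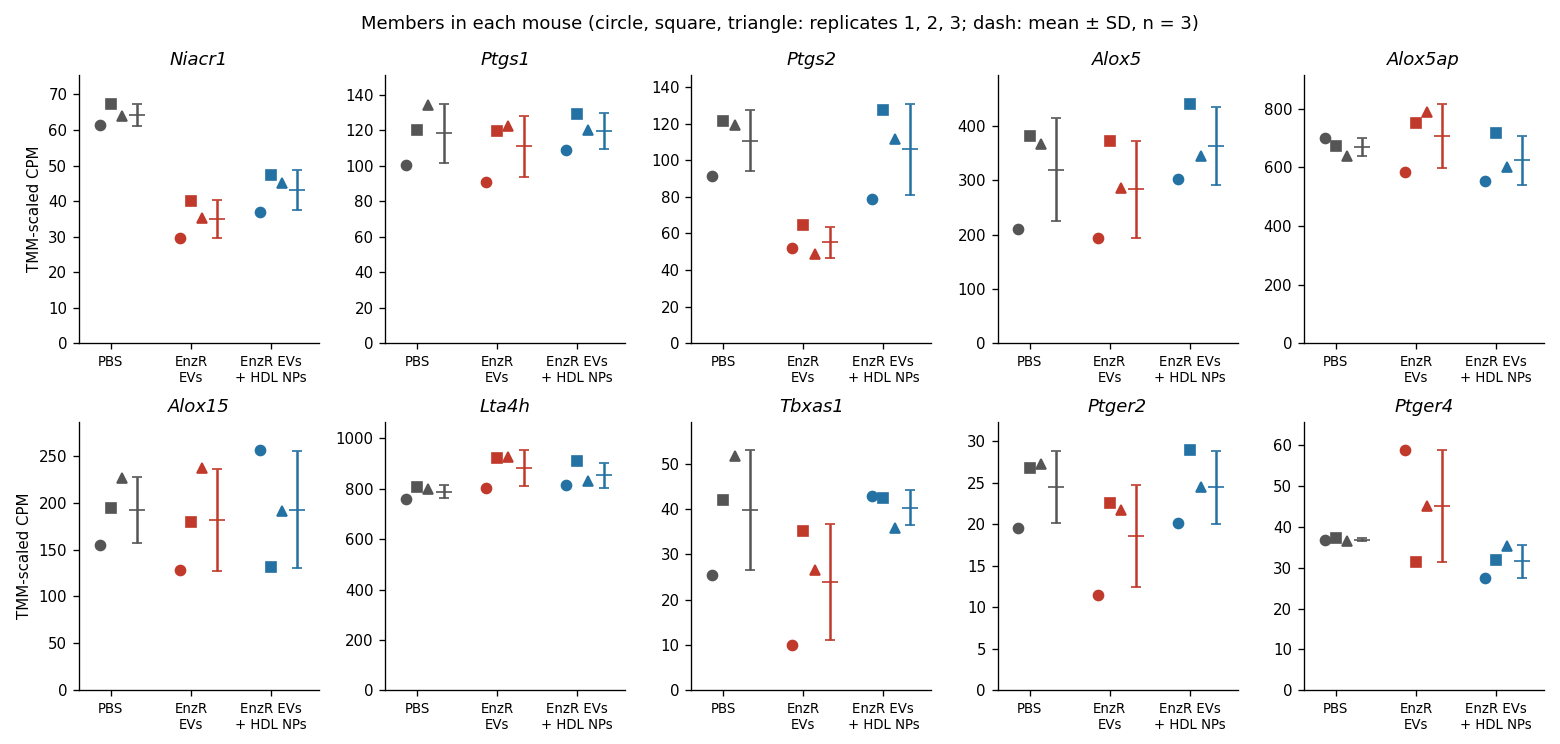
Level of each of the 10 members in every mouse, in TMM-scaled CPM (vertical axis, from 0) for the PBS, EnzR EVs and EnzR EVs + HDL NPs groups; the symbols are replicates 1, 2 and 3, and the dash with a bar is the mean ± SD of 3 mice. Niacr1 lies at 61.4 to 67.4 CPM in the PBS mice and at 47.3 CPM or less in all others, Ptgs2 lies at 48.7 to 64.9 CPM in the EnzR EVs mice and at 78.7 CPM or more in all others, and most other members overlap between groups.

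Both cyclooxygenase genes are shown by their promoter sequence, since Ptgs2 was chosen for its low level in the EnzR EVs mice and Ptgs1 was not. The windows of 300 bases run from 250 before to 50 after the annotated start, are taken from RefSeq on GRCm38.p6 and read 5′ to 3′ on the plus strand, chr1:150099781-150100080 for Ptgs2 and chr2:36230176-36230475 for Ptgs1. Capitals mark matches, on either strand, to the motifs given after the sequences.
Ptgs2: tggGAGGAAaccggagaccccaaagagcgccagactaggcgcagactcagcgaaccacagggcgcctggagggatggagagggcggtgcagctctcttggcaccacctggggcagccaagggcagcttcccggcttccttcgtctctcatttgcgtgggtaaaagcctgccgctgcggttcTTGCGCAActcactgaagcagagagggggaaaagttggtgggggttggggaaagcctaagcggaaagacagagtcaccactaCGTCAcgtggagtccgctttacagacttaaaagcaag
Ptgs1: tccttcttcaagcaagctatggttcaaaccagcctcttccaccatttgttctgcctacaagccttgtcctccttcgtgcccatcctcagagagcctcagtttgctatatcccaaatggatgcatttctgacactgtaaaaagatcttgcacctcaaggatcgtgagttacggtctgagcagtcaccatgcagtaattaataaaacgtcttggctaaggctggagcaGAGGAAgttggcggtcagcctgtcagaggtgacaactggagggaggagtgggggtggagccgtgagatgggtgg
RefSeq promoter windows were found for 7 of the 10 members, these being Ptgs1, Ptgs2, Alox5, Lta4h, Tbxas1, Ptger2 and Ptger4. The motifs searched on both strands were the cyclic AMP response element TGACGTCA (in 1.79% of all 32851 promoter windows of this length), its half-site TGACG (20.8%), the AP-1 site TGANTCA (7.81%), the NF-kB site (1.63%), the C/EBP site TTGCNNCAA (2.08%), the PU.1 core GAGGAA (28.3%) and the TATA box TATAAA (13.6%), and the half-site lies within the full element. The Ptgs2 window held the cyclic AMP half-site on the minus strand at positions +14 to +18, where +1 is the annotated start, and the PU.1 core at −247 to −242. The Ptgs1 window held the PU.1 core at −24 to −19 and none of the other letters. The palindrome TTGCGCAA, a C/EBP motif that was searched for after the sequence had been read, lay at −69 to −62 in the Ptgs2 window and in 0.183% of all windows. These matches are letters in a window, and no binding was measured here.

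The ratio of Ptgs2 to Ptgs1 counts within a library does not depend on how libraries are scaled to each other. It was 0.911, 1.01 and 0.889 in the PBS mice, 0.572, 0.543 and 0.399 in the EnzR EVs mice and 0.722, 0.987 and 0.930 in the EnzR EVs + HDL NPs mice. The EnzR EVs mice lay below all others, as with Ptgs2 itself. The ratio of Niacr1 to Ptgs1 counts was 0.611, 0.561 and 0.477 in the PBS mice, 0.325, 0.336 and 0.289 in the EnzR EVs mice and 0.338, 0.367 and 0.376 in the EnzR EVs + HDL NPs mice. Here the mice given HDL NPs lay below every PBS mouse and just above the EnzR EVs mice, whose highest ratio was 0.336. The ratio of Niacr1 to Ptgs2 counts accordingly ran from 0.371 to 0.469 in the EnzR EVs + HDL NPs mice, below the 0.536 to 0.671 of the PBS mice and the 0.568 to 0.723 of the EnzR EVs mice. No test was made of these ratios, since their genes were chosen for their levels in the same libraries.

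**Figure D2:**
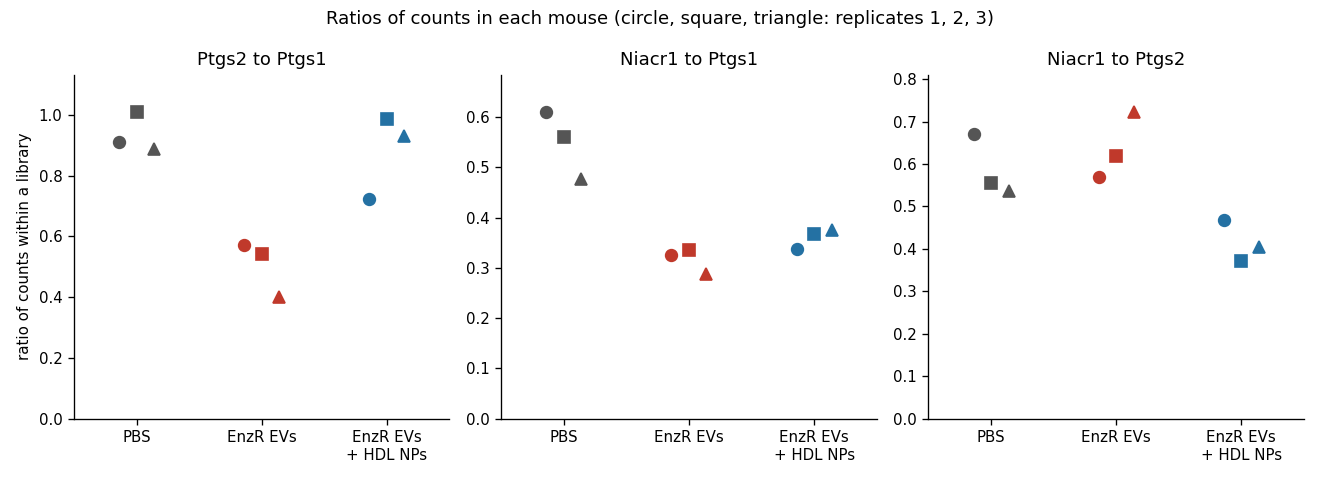
Ratios of the counts of Ptgs2 to Ptgs1, Niacr1 to Ptgs1 and Niacr1 to Ptgs2 within each library (vertical axis, no unit, from 0), by group; the symbols are replicates 1, 2 and 3. The Ptgs2 to Ptgs1 ratio is lowest in the 3 EnzR EVs mice (0.399 to 0.572), while the Niacr1 to Ptgs1 ratio is at most 0.376 in all 6 mice that received EnzR EVs.

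Ptgs1 and Tbxas1, the other members that make prostanoids, had overlapping PBS and EnzR EVs groups. Ptgs1 (chromosome 2, 36230426 to 36252272, plus strand) was measured at 101, 120 and 134 CPM in the PBS mice, 91.1, 119 and 122 CPM in the EnzR EVs mice and 109, 129 and 120 CPM in the EnzR EVs + HDL NPs mice. Its log2 fold change in EnzR EVs against PBS was −0.09 (standard error 0.17), and −0.08 without the 3 libraries rich in Rn45s (1 EnzR EVs mouse). Tbxas1 (chromosome 6, 38875404 to 39084585, plus strand), which encodes thromboxane A synthase, was measured at 25.5, 42.0 and 51.7 CPM in the PBS mice, 9.88, 35.1 and 26.6 CPM in the EnzR EVs mice and 42.8, 42.3 and 35.8 CPM in the EnzR EVs + HDL NPs mice. Its lowest value, from 18 reads, was that of EnzR EVs replicate 1, the library with the fewest counts and the most Rn45s. Its log2 fold change in EnzR EVs against PBS was −0.67 (standard error 0.36), −0.41 without the 3 libraries rich in Rn45s (1 EnzR EVs mouse), −0.37 without EnzR EVs replicate 1 and −0.99 without EnzR EVs replicate 2.

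The prostaglandin E2 receptors EP2 (Ptger2) and EP4 (Ptger4), both of which raise cyclic AMP, lay on opposite sides. Ptger2 (chromosome 14, 44988195 to 45003820, plus strand) was measured at 19.5, 26.7 and 27.3 CPM in the PBS mice, 11.5, 22.6 and 21.8 CPM in the EnzR EVs mice and 20.1, 28.9 and 24.5 CPM in the EnzR EVs + HDL NPs mice. Ptger4 (chromosome 15, 5206661 to 5244187, minus strand) was measured at 36.8, 37.3 and 36.6 CPM in the PBS mice, 58.7, 31.3 and 45.0 CPM in the EnzR EVs mice and 27.4, 31.9 and 35.4 CPM in the EnzR EVs + HDL NPs mice. The groups overlapped for both receptors in EnzR EVs against PBS, with log2 fold changes of −0.35 (standard error 0.26) for Ptger2 and 0.26 (standard error 0.22) for Ptger4. Without EnzR EVs replicate 1 these were −0.15 for Ptger2 and 0.05 for Ptger4, and without EnzR EVs replicate 2 they were −0.46 and 0.50. Without the 3 libraries rich in Rn45s these were −0.26 for Ptger2 and −0.23 for Ptger4, with EnzR EVs replicate 2 as the only mouse of its group, which had the lowest Ptger4 of the 3. Ptger4 had the tightest PBS group, with an SD of 0.398 CPM, and its highest value lay again in EnzR EVs replicate 1. Across the 9 libraries the log2 level of Ptger4 had a Pearson r of 0.84 with the log2 share of Rn45s, and that of Tbxas1 had −0.87. With the summed monocyte and neutrophil lineage markers described below, Ptger4 had −0.87 and −0.82 (Spearman −0.55 and −0.62). Tbxas1 had 0.78 and 0.92 with them (Spearman 0.40 and 0.67). These values describe libraries that share depth and composition, and the part of Rn45s or of these cells in either gene's level was not tested. The annotated genes on the opposite strand that overlap Ptgs1, Alox5ap, Tbxas1, Ptger2 and Ptger4 could contribute reads if strand was not used in the counting, which is not given in the sources used here.

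In the lipoxygenase branch all 4 members overlapped between PBS and EnzR EVs mice. Alox5 (chromosome 6, 116410077 to 116461178, minus strand) ranged from 211 to 381 CPM after PBS, from 193 to 372 CPM after EnzR EVs and from 303 to 441 CPM when HDL NPs were added. Alox5ap (chromosome 5, 149264767 to 149288153, plus strand) ranged from 638 to 699 CPM, from 584 to 789 CPM and from 554 to 717 CPM in the same groups. Lta4h (chromosome 10, 93453411 to 93484875, plus strand), the hydrolase that makes leukotriene B4, a chemoattractant of neutrophils, was the most abundant member by CPM, at 760 to 807 CPM, 802 to 925 CPM and 817 to 910 CPM. Alox15 (chromosome 11, 70344152 to 70352031, minus strand), the 12/15-lipoxygenase of eosinophils and macrophages, was measured at 256, 131 and 191 CPM in the EnzR EVs + HDL NPs mice. It lay at 155 to 226 CPM in the PBS mice and 128 to 237 CPM in the EnzR EVs mice. The log2 fold changes in EnzR EVs against PBS ran from −0.17 for Alox5 to 0.16 for Lta4h, and all 4 intervals included 0. With 1 EnzR EVs mouse, without the 3 libraries rich in Rn45s, they were −0.0041 for Alox5, 0.20 for Alox5ap, −0.23 for Alox15 and 0.20 for Lta4h.

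The members were also set beside markers of the cells that the selection could hold. Markers were summed as CPM, so the most abundant genes of a list weigh most. In the neutrophil lineage list S100a9 ran from 2229 CPM in EnzR EVs replicate 1 to 51360 CPM in EnzR EVs + HDL NPs replicate 2. Mpo went the other way, from 1673 to 439 CPM in the same libraries. Among eosinophil markers Prg2 was highest in EnzR EVs replicate 1, at 2806 CPM, where Ear1 was lowest, at 10.97 CPM. Alox5 had a Pearson r of 0.94 (Spearman 0.97) with the summed neutrophil lineage markers over the 9 libraries, on log2 scales, and −0.89 with the share of Rn45s. With the same markers Tbxas1 had 0.92 (Spearman 0.67), Ptger2 0.89 (Spearman 0.82), Ptgs1 0.83 (Spearman 0.55) and Ptger4 −0.82 (Spearman −0.62). The Pearson r of the other 5 members with the neutrophil lineage markers ran from 0.25 to 0.60. With the share of Rn45s Ptger2 had −0.76 (Spearman −0.65) and Ptgs1 −0.72 (Spearman −0.47). Ptgs1 had 0.84 with the 7 stroma and endothelium markers and 0.66 with the 9 platelet and megakaryocyte markers. Alox15 had 0.59 (Spearman 0.60) with the 7 eosinophil markers, whose sum ranged from 2196 to 2969 CPM after PBS, from 2401 to 3410 CPM after EnzR EVs and from 1568 to 3663 CPM with HDL NPs. Niacr1 had 0.65 (Spearman 0.48) with the 7 monocyte markers, whose sum was 3236 to 3744 CPM after PBS, 1840 to 3254 CPM after EnzR EVs and 2732 to 3765 CPM with HDL NPs. Ptgs2 had 0.57 (Spearman 0.30) with the same markers, 0.60 (Spearman 0.62) with the neutrophil lineage, 0.66 (Spearman 0.68) with the erythroid markers, −0.69 (Spearman −0.70) with the T and NK cell markers and −0.61 (Spearman −0.50) with the share of Rn45s. Niacr1 had 0.62 (Spearman 0.65) with the erythroid markers and −0.33 (Spearman −0.25) with the share of Rn45s. The 7 markers of marrow macrophages summed to 593 to 1085 CPM after PBS, 488 to 626 CPM after EnzR EVs and 560 to 728 CPM with HDL NPs. The 7 basophil and mast cell markers summed to 112 to 235 CPM, 81.6 to 213 CPM and 34.5 to 161 CPM. In EnzR EVs against PBS, where Niacr1 and Ptgs2 were lower, the groups were also separate and lower for some markers. These were 2 of 7 monocyte markers (Fn1 and Cx3cr1) and 2 of 7 macrophage markers (Vcam1 and Cd5l). They also were 3 of 7 basophil and mast cell markers (Mcpt8, Cpa3 and Fcer1a) and 1 of 7 T and NK cell markers. The share of all tested genes was 4.52%. Cpa3 had 6 to 387 counts per library and Fcer1a 0 to 78, with values under the floor of 3 counts. The T and NK cell marker was Cd8a, with at most 2 counts. Gata2 of the basophil and mast cell list overlapped, with means of 15.2 CPM after EnzR EVs and 13.7 CPM after PBS. Fn1, which encodes fibronectin, was measured at 1503, 1228 and 1185 CPM in the PBS mice and 533, 923 and 783 CPM in the EnzR EVs mice. In EnzR EVs + HDL NPs against PBS, where Niacr1 was lower, 1 of 7 monocyte markers (Csf1r) and 2 of 7 macrophage markers (Cd5l and C1qb) were separate and lower. So was 1 of 11 neutrophil lineage markers (Elane), beside 6.21% of all genes, and 0 markers of these lists were separate and higher. The markers that were separate in EnzR EVs + HDL NPs against EnzR EVs are given with that comparison. The part of these cells in the levels of the members was not tested. RNA of cells outside the myeloid lineage was present at low levels. The 7 T and NK cell markers summed to between 24.5 and 76.8 CPM over the 9 libraries, with Nkg7 at 16.4 to 66.9 CPM, while Cd3e, Cd3g and Cd8a averaged under 1 CPM. The 8 erythroid markers summed to between 47.2 and 340 CPM, with the β-globin gene Beta-s at 13.2 to 277 CPM, while Hba-a1, Hba-a2 and Hbb-b1 were listed with 0 counts.

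Across all genes, 0 of 12553 (0%) had an adjusted p under 0.05 by edgeR in EnzR EVs against PBS, 436 had an unadjusted p under 0.05, where 628 would if no gene differed, and DESeq2 called 8 of 14425 (0.0555%), of which Niacr1 is one. The groups of 3 did not overlap, with EnzR EVs higher, for 3.43% of all tested genes and, with EnzR EVs lower, for 4.52%. Of the 10 members 0 were separate and higher and 2 were separate and lower, which are the 2 genes that this comparison had chosen. The median log2 fold change of the members was −0.13, and that of all tested genes −0.03.

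The second comparison asked whether the members stood at their PBS level when HDL NPs were given with EnzR EVs. It shares the PBS libraries with the first comparison, so that the 2 are not independent, and the PBS values of Niacr1 and Ptgs2 are part of what chose them. The values of these 2 genes are therefore a description here too. EdgeR called 0 of 12553 genes (0%), with 268 at an unadjusted p under 0.05 beside the same 628, and DESeq2 called 7 of 11505 (0.0608%), none of them a member. Niacr1 was lower than in every PBS mouse, with a log2 fold change of −0.58 (standard error 0.17). With single libraries left out it ran from −0.65 to −0.46. Ptgs2 stood at −0.06 in log2 terms (standard error 0.21), with overlapping groups. The groups did not overlap, with EnzR EVs + HDL NPs higher, for 6.95% of all genes and for 1 member, Lta4h (log2 fold change 0.11, standard error 0.15). They did not overlap in the lower direction for 6.21% of all genes and for 2 members, Niacr1 and Ptger4 (−0.23, standard error 0.22). The remaining 7 members overlapped, with log2 fold changes from −0.10 for Alox5ap to 0.18 for Alox5, and the median over the members was −0.00 beside −0.01 for all genes.

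The third comparison, EnzR EVs + HDL NPs against EnzR EVs, asked which members differed when HDL NPs were added. It uses the EnzR EVs libraries whose low values of Niacr1 and Ptgs2 had chosen these genes, so a higher value here repeats part of that choice. EdgeR called 0 of 12553 genes (0%), with 1325 at an unadjusted p under 0.05 beside the same 628, and DESeq2 called 1 of 18794 (0.00532%), the mitochondrial translocator gene Tspo. Ptgs2 was 1.91-fold higher when HDL NPs were added (log2 fold change 0.93, standard error 0.22), with all 3 mice above all 3 EnzR EVs mice. This is a description with no test, since the low EnzR EVs values chose the gene, and it is not among the genes called by either tool. Over the 19 alternatives its log2 fold change ran from 0.70, without the 3 libraries rich in Rn45s and so with 1 EnzR EVs mouse, to 1.14, with scaling by library size alone. In this comparison 2 of 7 monocyte markers (Fn1 and Cx3cr1) and 2 of 7 macrophage markers (Vcam1 and Mrc1) were also separate and higher, beside 8.99% of all genes. Separate and lower were 1 of 7 macrophage and 1 of 11 neutrophil lineage markers, beside 8.58% of all genes. Of 7 T and NK cell markers 1 was separate and higher and 1 separate and lower. The part of these cells in the level of Ptgs2 was not tested. Niacr1 stood at 0.29 in log2 terms (standard error 0.17), with overlapping groups. Without the 3 libraries rich in Rn45s this value was 0.10, against EnzR EVs replicate 2 alone. Whether Niacr1 and Ptgs2 responded differently to HDL NPs was not tested.

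Tbxas1 was the other member with separate groups in the third comparison, at 35.8 to 42.8 CPM with HDL NPs and 9.88 to 35.1 CPM without. It stood at 0.68 on the log2 scale (standard error 0.36), which did not pass (edgeR adjusted p = 0.474), at 0.37 without EnzR EVs replicate 1 and at 0.20 without the 3 libraries rich in Rn45s (1 EnzR EVs mouse). Ptger4 went the other way, with overlapping groups and −0.49 on the log2 scale (standard error 0.22, edgeR adjusted p = 0.461), and it was 0.01 against that 1 mouse. Of the 10 members 2 were separate and higher, where 8.99% of all genes were, and 0 were separate and lower, where 8.58% were. One of the 2 is Ptgs2, whose low EnzR EVs values had chosen it, so nothing is read from this count. The median log2 fold change of the members was 0.19, and that of all genes 0.03. Scaling by library size alone moved the median of all genes to 0.24 in this comparison, to −0.18 in EnzR EVs against PBS and to 0.05 in EnzR EVs + HDL NPs against PBS.

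**Figure D3:**
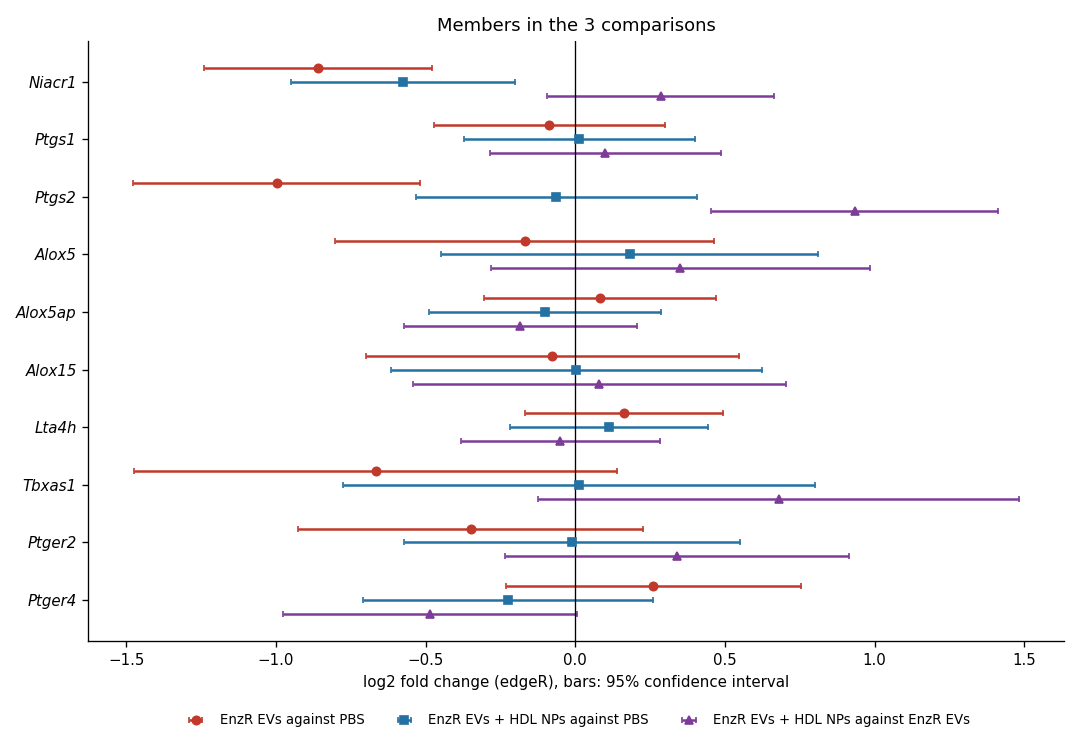
Log2 fold change (horizontal axis) of the 10 members in the 3 comparisons, from edgeR's fit to all 9 libraries; points are estimates and bars their 95% confidence intervals. In EnzR EVs against PBS, the comparison that chose them, Niacr1 lies at −0.86 and Ptgs2 at −0.998, which is a description and no test, and in EnzR EVs + HDL NPs against PBS they lie at −0.58 and −0.06.

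Levels per kilobase of exonic length, which allow genes to be set beside each other, placed the members in a similar order in all groups. In the PBS mice Alox5ap was the highest at 497 CPM per kb (474 to 519), followed by Lta4h at 389, Alox5 at 113, Alox15 at 79.7, Ptgs1 at 41.2, Niacr1 at 33.3, Ptgs2 at 24.8, Tbxas1 at 12.8, Ptger4 at 11.1 and Ptger2 at 6.66 CPM per kb. Neighbours in this order had separate ranges over the 3 PBS mice except Alox5 with Alox15 and Tbxas1 with Ptger4, whose ranges overlapped. In the EnzR EVs mice Ptgs2, at 12.4 CPM per kb (10.9 to 14.6), came below Ptger4, at 13.5 CPM per kb (9.42 to 17.7), and each of the neighbours from Niacr1 down to Ptger2 overlapped the next. In the EnzR EVs + HDL NPs mice Ptgs2, at 23.8 CPM per kb (17.7 to 28.6), came just above Niacr1, at 22.4 CPM per kb (19.1 to 24.5), and the ranges of the 2 overlapped. The leukotriene genes Alox5ap and Lta4h thus stood above both cyclooxygenases in every group.

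**Figure D4:**
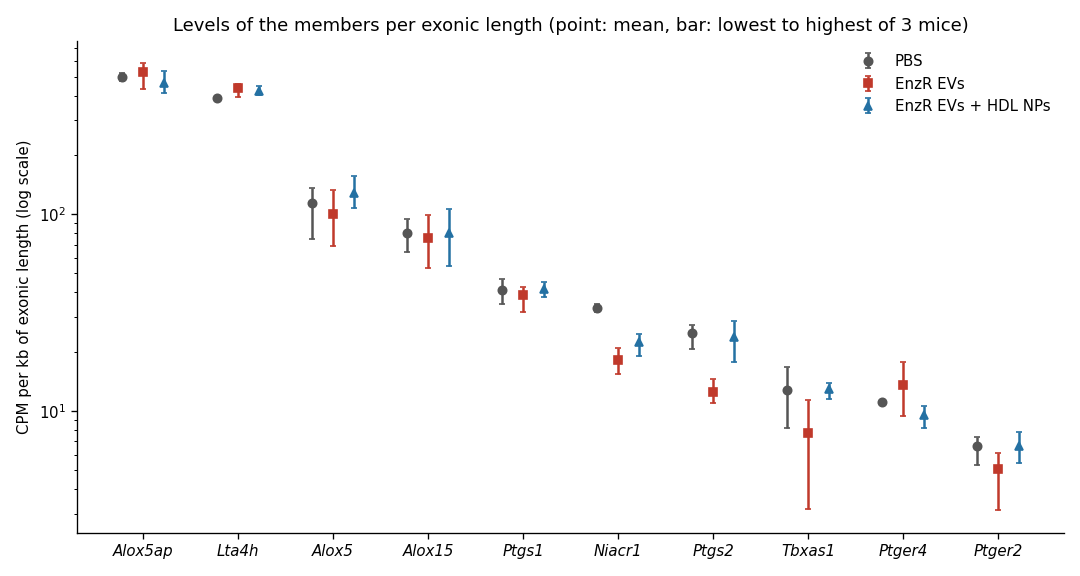
Level of each member in CPM per kilobase of exonic length (vertical axis, log scale) in the 3 groups; points are means and bars run from the lowest to the highest of 3 mice. Alox5ap (497 CPM per kb after PBS) and Lta4h (389) are the highest and Ptger2 (6.66) the lowest.

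The genes whose pattern over the 9 libraries was most like that of Niacr1 were sought among 10567 genes with a mean log2 CPM of at least 1, by Pearson r of log2 CPM. These were Atf3 (r = 0.96, Spearman 0.93), a stress-induced transcription factor, Fos (0.95, Spearman 0.95), a subunit of AP-1, Mblac2 (0.94), Kremen1 (0.93) and Cx3cr1 (0.93), the fractalkine receptor of monocytes and one of the 7 monocyte markers above. Cx3cr1 was measured at 60.0, 69.1 and 67.7 CPM in the PBS mice, 39.5, 45.8 and 43.2 CPM in the EnzR EVs mice and 49.1, 64.5 and 51.5 CPM in the EnzR EVs + HDL NPs mice. Atf3 was measured at 87.1, 82.0 and 97.7 CPM, at 34.6, 45.2 and 30.7 CPM and at 43.1, 58.9 and 58.8 CPM in these groups, and like Niacr1 it is one of the 8 genes called by DESeq2 in EnzR EVs against PBS. Most like Ptgs2 were Mllt4 (r = 0.98, Spearman 0.97), which encodes the adhesion protein afadin, Prps1l1 (0.96), Cnst (0.96), Nlk (0.95), which encodes nemo-like kinase, and Trem1 (0.93), a receptor that amplifies inflammatory signals in neutrophils and monocytes. Trem1 was measured at 261, 375 and 353 CPM in the PBS mice, 162, 270 and 175 CPM in the EnzR EVs mice and 268, 361 and 287 CPM in the EnzR EVs + HDL NPs mice. Mllt4 ranged from 30.3 to 34.2 CPM, from 23.6 to 27.5 CPM and from 29.3 to 35.4 CPM. The r between Niacr1 and Ptgs2 themselves was 0.80. Both had been chosen for low values in the same EnzR EVs libraries, so this r repeats part of that choice and nothing is read from it. Among the other members Tbxas1 and Ptger2 (0.92), Ptgs1 and Ptger2 (0.92) and Ptgs1 and Alox5 (0.90) had the highest values. These are descriptions over n = 9 libraries that share 3 groups and differ in depth.

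A list of 63 further genes of the eicosanoid pathway gave the context, of which 45 passed the filter on low counts. EdgeR and DESeq2 each called 0 of the 45 in all 3 comparisons, in either direction. At an unadjusted edgeR p under 0.05 there were 4 in EnzR EVs against PBS, 2 in EnzR EVs + HDL NPs against PBS and 2 in EnzR EVs + HDL NPs against EnzR EVs, beside 436, 268 and 1325 of all 12553 tested genes. In EnzR EVs against PBS 21 lay above 0 and 24 below, with a median log2 fold change of −0.00. The groups were separate and higher for 4 genes and separate and lower for 3, beside the background of 3.43% and 4.52% of all genes. Lower were Ephx1, which encodes the microsomal epoxide hydrolase (log2 fold change −1.63, standard error 0.48), Ptgdr, a prostaglandin D2 receptor (−0.89, standard error 0.38), and 2810405K02Rik (now Prxl2b), a prostaglandin F synthase (−0.88, standard error 0.37). The highest value of these 3 genes in any mouse was 7.32 CPM. Ephx1 and Ptgdr had as few as 2 counts in a library, under the floor of 3 counts. Higher were Pla2g4b, a phospholipase A2 with 1 to 22 counts per library and some values under the floor of 3 counts (0.95), Ltb4r1, the high-affinity leukotriene B4 receptor (0.19), Abcc4, a transporter that exports prostaglandins (0.16), and Ptges2 (0.15). Hpgd, the dehydrogenase that inactivates prostaglandins, is the fourth gene with an unadjusted p under 0.05 and is named after its values were seen. It was measured at 28.7, 51.7 and 60.3 CPM in the PBS mice, 17.0, 29.0 and 25.5 CPM in the EnzR EVs mice and 28.9, 38.4 and 33.8 CPM in the EnzR EVs + HDL NPs mice, and its log2 fold change in EnzR EVs against PBS was −0.95 (standard error 0.28, adjusted p = 0.928 by edgeR).

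When HDL NPs were added, the pathway list again held no called gene. Against PBS, Pla2g7, the secreted platelet-activating factor acetylhydrolase carried by lipoproteins, was separate and higher (log2 fold change 0.47, standard error 0.28, adjusted p = 1 by edgeR). It was measured at 103, 157 and 155 CPM in the PBS mice, 80.1, 187 and 143 CPM in the EnzR EVs mice and 165, 222 and 186 CPM in the EnzR EVs + HDL NPs mice. Separate and lower against PBS were Tbxa2r, the thromboxane receptor, with 3 to 9 counts per library (−1.12), Pla2g12a (−0.81), Pla2g15, the lysosomal phospholipase A2 (−0.48), and Ptges3 (−0.31), and the median of the 45 genes was −0.05. These are 1 and 4 of 45 genes, where 6.95% of all genes were separate and higher and 6.21% separate and lower. Against EnzR EVs, Ptgdr (0.76, from 2 to 54 counts per library) and Gpr18 (0.69, from 1 to 104 counts) were separate and higher. Pla2g4b (−0.97), Ptges3 (−0.89, standard error 0.33, adjusted p = 0.461 by edgeR), Cbr3 (−0.82, from 2 to 18 counts per library) and Pla2g15 (−0.53) were separate and lower, and the median of the 45 genes was −0.09. These are 2 and 4 of 45 genes, beside 8.99% and 8.58% of all genes. Ptges3, a prostaglandin E synthase that also serves as the HSP90 co-chaperone p23, owed its EnzR EVs mean of 56.2 CPM to a value of 94.4 CPM in replicate 1, the others being 37.1 and 37.1 CPM.

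**Figure D5:**
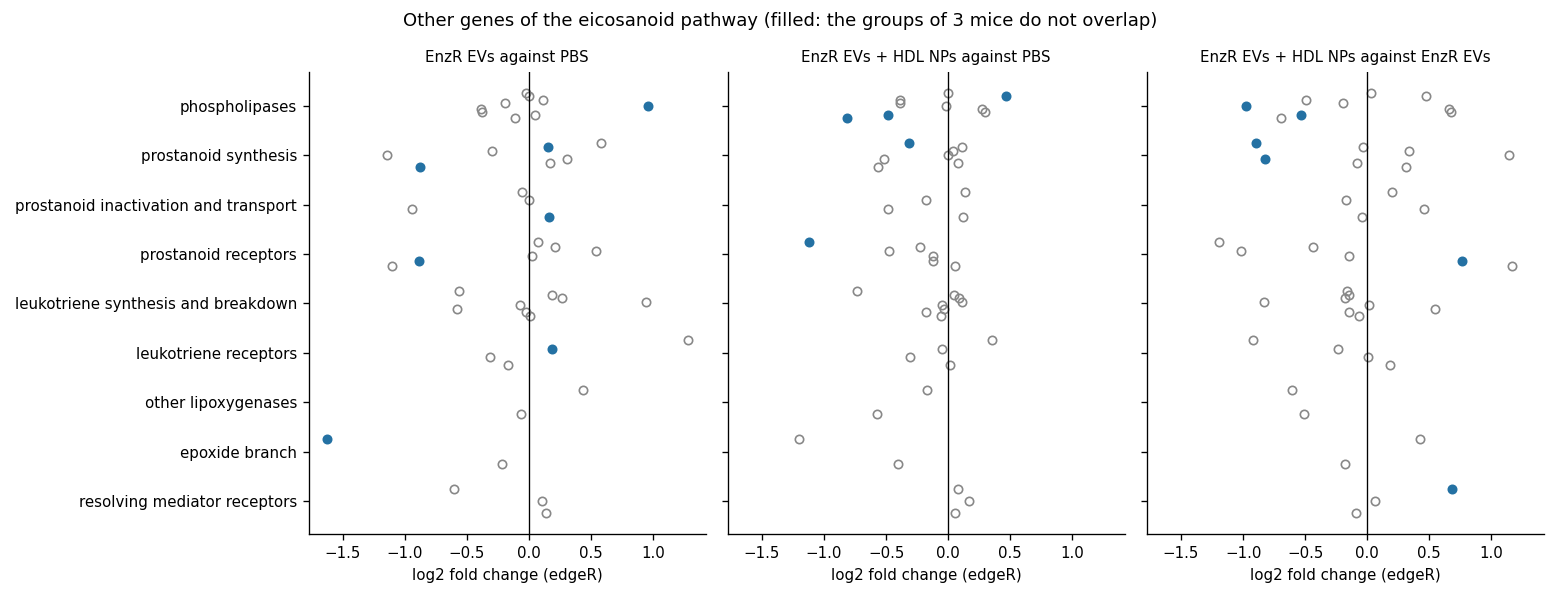
Log2 fold changes (horizontal axis) of the 45 tested genes of the eicosanoid pathway list, by step of the pathway and comparison; each circle is a gene, filled where the groups of 3 mice do not overlap. The genes lie on both sides of 0 in every comparison, with medians of −0.00, −0.05 and −0.09 from left to right.

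Of 6 related receptors for hydroxycarboxylic and fatty acids in the counts, 2 passed the filter. Ffar2, a receptor of neutrophils for short-chain fatty acids, ranged from 50.7 to 62.9 CPM after PBS, from 41.7 to 60.8 CPM after EnzR EVs and from 52.6 to 62.5 CPM with HDL NPs. Gpr84, a receptor for medium-chain fatty acids, ranged from 10.4 to 17.4 CPM, from 2.19 to 23.1 CPM and from 14.3 to 23.4 CPM. Both overlapped between all groups, with log2 fold changes in EnzR EVs against PBS of −0.13 (standard error 0.18) for Ffar2 and 0.05 (standard error 0.49) for Gpr84. Gpr81, the lactate receptor nearest to Niacr1 in its family, had at most 1 count in any library.

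A list of 28 genes that are often induced together with Ptgs2 held 26 that passed the filter, and Atf3 in it had been noticed in these data before. In EnzR EVs against PBS 21 of the 26 lay below 0, with a median log2 fold change of −0.33, and 9 were separate and lower where 4.52% of all genes were. EdgeR called 0 of them, 6 had an unadjusted p under 0.05, and DESeq2 called 1, Atf3 (adjusted p = 1.18e-04 by DESeq2). In EnzR EVs + HDL NPs against PBS 10 were separate and lower where 6.21% of all genes were, with a median of −0.45 and 0 calls by either tool. In EnzR EVs + HDL NPs against EnzR EVs the median was 0.14, with 1 separate and higher (8.99% of all genes), 1 separate and lower (8.58% of all genes) and 0 calls by either tool. The 3 genes of the list with the highest mean over all 9 libraries were Fos, Zfp36 and Cebpb. Fos was measured at 1172, 1326 and 1332 CPM in the PBS mice, 676, 985 and 741 CPM in the EnzR EVs mice and 702, 1112 and 902 CPM in the EnzR EVs + HDL NPs mice. Zfp36, which encodes an mRNA decay factor, lay at 444 to 648 CPM, 369 to 663 CPM and 287 to 545 CPM. Cebpb, a transcription factor of myeloid cells, was measured at 779, 274 and 214 CPM, at 1422, 198 and 542 CPM and at 128, 224 and 267 CPM, and its 3 highest values, which place it among these 3 genes, were those of the 3 libraries rich in Rn45s. In the PBS mice Junb (493 to 562 CPM) and Dusp1 (434 to 499 CPM), named after their values were seen, had higher means than Cebpb. After EnzR EVs they were measured at 382 to 568 CPM and 290 to 395 CPM, which for Dusp1 was separate and lower (log2 fold change −0.53, standard error 0.185, edgeR adjusted p = 0.928).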

How the data were processed

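CD11b+ bone marrow cells of 9 mice were profiled by total RNA sequencing, one library per mouse. The values the authors deposited are gene counts, not normalized. Per the study's methods, reads were trimmed (cutadapt 1.13), those of poor quality or from rRNA removed, and the rest mapped by STAR to mm10 and assigned to UCSC genes by HTSeq 0.6.1p1; the strand setting is not given in the sources used here. All 9 files held the same 23337 genes, groups came from the labels, and 0 libraries were unmapped.

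The tests used edgeR 4.0.16 under R 4.3.3, with TMM scaling, the default filter on low counts (12553 genes kept), a robust quasi-likelihood fit to all 9 libraries and Benjamini-Hochberg adjustment over all tested genes, with a threshold of 0.05. The common biological coefficient of variation was 0.259. Levels are TMM-scaled CPM, errors are SDs of 3 mice, and correlations used log2 CPM with a prior count of 2. DESeq2 1.42.0 and limma 3.58.1 served as alternatives, as did other scalings, filters and sets of libraries. The scripts were tested on simulated data. With 3 mice against 3 an exact permutation test of 1 gene cannot give a p below 0.10, so none is given.

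The members and all gene lists were chosen with earlier results of these data known. Named were all 10 members, list genes past the threshold, up to 5 list genes per direction and comparison with separate groups, the 5 genes most like Niacr1 and Ptgs2, and the 3 most abundant genes of the other lists; Hpgd, Gpr81, Junb, Dusp1, the marker genes and the genes of the closing observations were added after values were seen. Coordinates and exonic lengths came from GENCODE on GRCm38, the assembly of mm10, matched for 98.1% of genes, and promoters from RefSeq. Total counts set the precision, from 2575776 to 18110561 per library, and nothing in the labels says more of the replicates than that each is a mouse.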

Additional observations from a re-analysis of the deposited data

How the results depend on the processing

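The 19 alternatives changed no direction of Niacr1 or Ptgs2 in EnzR EVs against PBS, which their choice had fixed: the log2 fold changes ran from −1.01 to −0.71 and from −1.17 to −0.89, the values nearest 0 being those with 1 EnzR EVs mouse. Niacr1 ran from −0.65 to −0.46 in EnzR EVs + HDL NPs against PBS. Where edgeR called 0 genes, DESeq2 called 8 in EnzR EVs against PBS. It called 7 and 1 with HDL NPs added, against PBS and against EnzR EVs. In EnzR EVs against PBS edgeR called 1 gene with no filter, 1 with the replicate block and 10 without the 3 libraries rich in Rn45s, which leave 1 EnzR EVs mouse that is assumed to vary like the other groups, and between 0 and 2 with single replicates left out, the 2 being without PBS replicate 1. In EnzR EVs + HDL NPs against EnzR EVs it called 1 gene in the 6 libraries of these groups, 1 without the 3 libraries rich in Rn45s (again 1 EnzR EVs mouse), and between 0 and 1 with single replicates left out. No alternative called a gene of the pathway list. The cause of these differences was not tested.

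Small log2 fold changes changed sign. In EnzR EVs against PBS the alternatives ran from −0.25 to 0.03 for Ptgs1, −0.40 to 0.04 for Alox5, −0.07 to 0.21 for Alox5ap, −0.32 to 0.12 for Alox15, −0.0060 to 0.23 for Lta4h and −0.23 (with 1 EnzR EVs mouse) to 0.50 for Ptger4. In EnzR EVs + HDL NPs against PBS, without the 3 libraries rich in Rn45s, Ptgs1 was at −0.088, Alox5 at −0.043, Alox15 at −0.13 and Tbxas1 at −0.21. Alox15 was also at −0.035 with limma's voom and at −0.0003 with upper quartile scaling. Ptger2 was at 0.0008 with DESeq2, 0.027 with library size alone and 0.0025 with the replicate block. With single replicates left out Ptgs1 ran from −0.0895 to 0.107, Ptgs2 from −0.22 to 0.12, Alox5 from −0.0448 to 0.34, Alox15 from −0.24 to 0.21, Tbxas1 from −0.22 to 0.24 and Ptger2 from −0.15 to 0.13. In EnzR EVs + HDL NPs against EnzR EVs, without the 3 libraries rich in Rn45s and so against 1 mouse, Ptgs1 was at −0.0037, Alox5 at −0.0392 and Ptger4 at 0.0056, and with library size alone Alox5ap was at 0.0212 and Lta4h at 0.17. With single replicates left out Ptgs1 ran from −0.0236 to 0.18 and Alox15 from −0.19 to 0.33.

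Same-numbered libraries of different groups had a mean correlation of their deviations from the group means of 0.174 over 9 pairs (−0.175 to 0.492). Differently numbered ones had −0.076 over 18 pairs (−0.533 to 0.429). Between PBS and EnzR EVs mice the same-numbered pairs had 0.473, 0.492 and 0.131 for replicates 1, 2 and 3. Replicate 1 was rich in Rn45s in both groups, and replicate 2 in neither. The differently numbered PBS replicate 3 and EnzR EVs replicate 2, neither of them rich in Rn45s, had 0.429. PBS replicate 1 and EnzR EVs replicate 2 had −0.533. The part of Rn45s in these values was not tested. In each same-numbered pair of PBS and EnzR EVs mice Ptgs1, Alox5, Tbxas1 and Ptger2 were lower, and Lta4h higher, in the EnzR EVs mouse. Alox5ap, Alox15 and Ptger4 were lower in some of these pairs and higher in others. The share of all genes with the same direction in every such pair was not counted, so nothing is read from this. With the block the log2 fold changes of Ptgs1, Alox5, Tbxas1, Ptger2 and Lta4h were −0.09, −0.18, −0.72, −0.39 and 0.16. Their edgeR adjusted p values were 0.739 or more. The labels say only that each replicate is a mouse, so the numbers were not taken to pair the mice. The block changed no other call than the 1 gene above.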

Other observations

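The 45 tested genes of the pathway list were also compared by level, in genes chosen after their values were seen. Per kilobase of exonic length in the PBS mice the highest were Fpr2, a formyl peptide receptor that also binds lipoxin A4, at 284 ± 31.0 CPM per kb (SD, n = 3), Cyp4f18, which inactivates leukotriene B4 in neutrophils, at 136 ± 5.74 CPM per kb (SD, n = 3), and Ltb4r1, the leukotriene B4 receptor, at 126 ± 6.80 CPM per kb (SD, n = 3). The leukotriene C4 synthase gene Ltc4s had at most 13 counts in any library and did not pass the filter. Ptgis, the prostacyclin synthase, had at most 2 counts. Of the prostaglandin D2 synthases Ptgds had at most 3 counts, while the hematopoietic enzyme Hpgds was measured at 2.99, 12.4 and 19.2 CPM in the PBS mice, 2.74, 8.89 and 2.72 CPM in the EnzR EVs mice and 15.6, 10.97 and 8.87 CPM in the EnzR EVs + HDL NPs mice, with overlapping groups. Ptges, the inducible prostaglandin E synthase, was measured at 9.68 to 10.5 CPM in the PBS mice, 6.59 to 10.6 CPM in the EnzR EVs mice and 10.0 to 10.8 CPM in the EnzR EVs + HDL NPs mice.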
